A study of Mus musculus with 11 samples.

Results

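Cholesterol export and storage were followed through 9 genes, grouped by their function: Abca1, Abcg1, Nr1h2, Nr1h3, Srebf1, Srebf2, Soat1, Npc1 and Npc2, out of 21887 protein-coding genes annotated by RefSeq on mm10. A macrophage that takes up lipid frees cholesterol in its lysosomes, where NPC2 and NPC1 pass it on. It then exports the surplus through ABCA1 and ABCG1 or stores it as esters made by SOAT1. The liver X receptors, encoded by Nr1h3 (LXR-alpha) and Nr1h2 (LXR-beta), sense oxidised sterols and switch on export, whereas SREBP-2, encoded by Srebf2, drives synthesis and uptake when sterol is scarce. SREBP-1, encoded by Srebf1, drives fatty acid synthesis. Alveolar macrophages handle large amounts of surfactant lipid, and loss of this export is known to fill them with lipid.

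ATAC-seq, where a transposase cuts and tags open chromatin, was applied to sorted tissue-resident (alveolar) macrophages of C57BL/6 mouse lung. The 3 groups were naive mice (4 samples), mice 15 days after KP lung tumour cells had been given into the tail vein (4 samples) and mice 30 days after (3 samples). The tumours grew from an injected cell line, some of it labelled with GFP, and the sources do not say whether each sample came from its own mouse. Each group has 1 peak list, so there is no replicate error and no p-value between conditions. A peak missing from a list says only that none was called there. The authors' fold and p-value of a peak rank it within its list. From them the summit pileup was recovered, the number of tags at the highest point of a peak.

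The naive, day 15 and day 30 lists hold 14731, 10861 and 3352 peaks, with a background of 0.785, 1.87 and 1.65 tags per position. Taken as a measure of depth, this background was 2.38 and 2.10 times the naive value in the day 15 and day 30 lists. This assumes that tags were filtered and extended alike in each list, which is not stated. Of 12 alveolar macrophage marker genes, 6, 3 and 1 had a peak inside or within 1000 bp (naive, day 15 and day 30 lists), and Siglecf, Marco, Fabp4, Car4, Chil3 and Bhlhe41 had none in any. Of 8 general macrophage markers, 6, 7 and 2 had one. Both sets of counts are the same for peaks within 1000 bp of a gene end alone. Of all protein-coding genes 34.7%, 29.6% and 12.8% had such a peak, so the share falls over all genes too. Among markers of other cells, Cd3d of T cells (1 of 5) and Cdh1 of epithelium and tumour cells (1 of 6) had a peak in all but the day 30 list, as did Pecam1 of endothelium (1 of 3), and S100a8 of neutrophils (1 of 4) in all lists, while none of 4 B cell and 2 fibroblast markers did. What these cells contribute to the values below was not tested.

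All 9 genes had at least 1 peak in the naive list, and 8 had one at day 15 (all but Nr1h3). The day 15 peak counted for Nr1h2 lay outside that gene, at its neighbour Pold1. At day 30 the cholesterol-binding lysosomal protein gene Npc2 alone had one. Peaks were assigned to a gene when they lay inside it, within 1000 bp of an end, or nearest to its end within 50 kb. By this assignment 45.9%, 38.7% and 16.2% of all protein-coding genes had a peak in these lists. This gave 23 naive peaks, 16 at day 15 and 2 at day 30, covering 7420, 4900 and 500 bp. Their median summit pileups, 16, 20 and 15 tags, were near those of all peaks in these lists, 16, 19 and 17. Summit pileups of the assigned peaks ran from 8 to 43 tags for naive peaks, from 12 to 41 for day 15 and from 14 to 16 for day 30. By p-value, 15 of the 23 naive peaks belonged to the weaker 50% of the naive list. In 2 day 15 and 4 naive cases the nearest gene end was that of another gene, as named below.

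**Figure D1:**
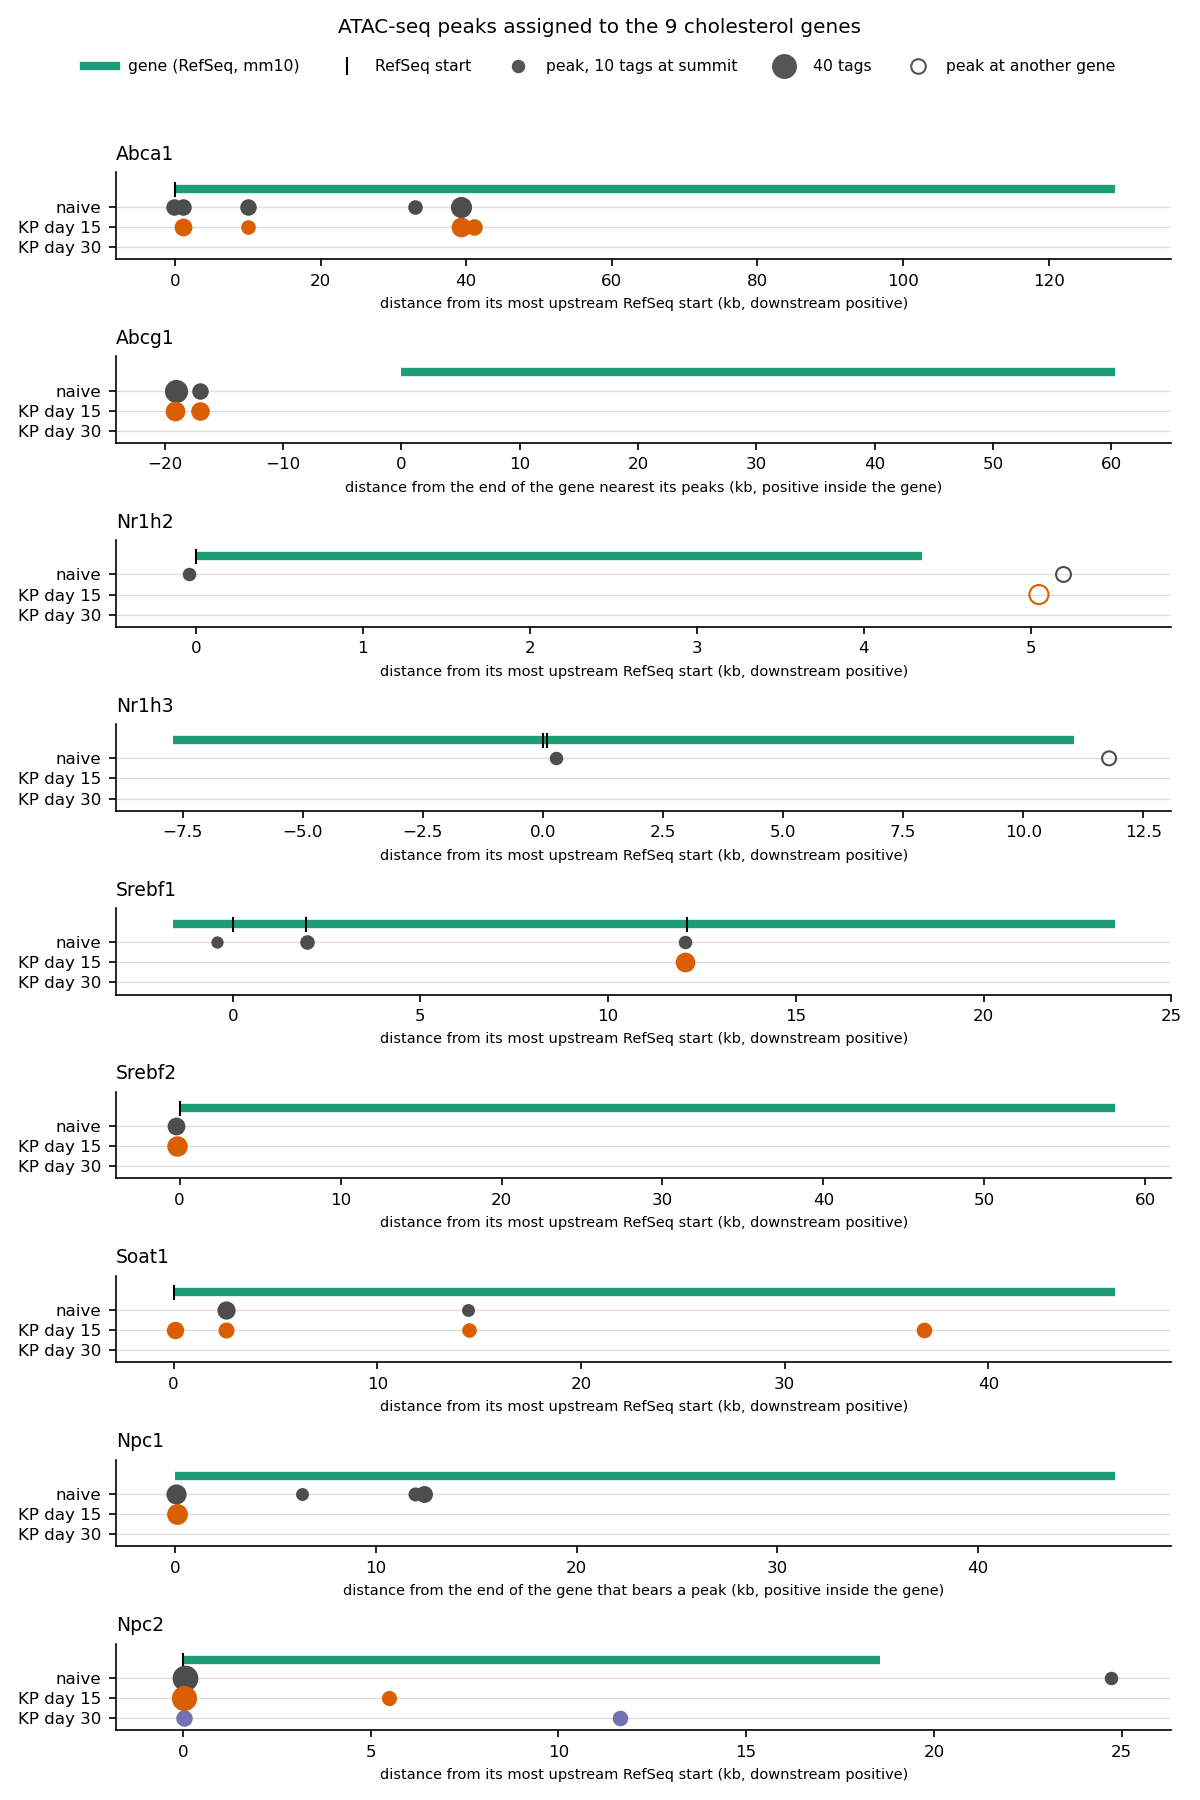
Each panel is 1 gene (green bar), with a line for its naive peaks, one for day 15 and one for day 30. The horizontal axis is distance in kb, from the most upstream RefSeq start or, for Abcg1 and Npc1, from an end of the gene. Circle area is the summit pileup in tags, black ticks are RefSeq starts and open circles are peaks over another gene. Only Npc2 has circles on the day 30 line, and Soat1 has a circle at its start on the day 15 line only.

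A boundary peak, meaning one no more than 1000 bp from a gene end, was found at 6 of the 9 genes in naive macrophages, at 5 on day 15 and at 1 on day 30. Over all protein-coding genes the shares were 34.7%, 29.6% and 12.8%. At day 15 the boundary peak was kept at Nr1h2, Srebf2, Npc1 and Npc2, 4 of the 6 naive genes, where 79.6% of all naive boundary genes kept theirs. It was lost at Abca1 and Nr1h3, where 20.4% of all were lost, and gained at Soat1, 1 of 3 genes without a naive one, where 3.04% of all were gained. At day 30 Npc2 kept its boundary peak, 1 of 6 against 36.5% over all genes. Among the 3352 strongest peaks of each list, 2, 4 and 1 of the 9 genes had a boundary peak, where 12.8%, 13.0% and 12.8% of all protein-coding genes had one. The 56 related genes described further on then had 19, 21 and 20. A difference between 2 and 4 of 9 genes is 2 genes, with no replicate behind it.

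The boundary count hides that some of these peaks lie at a neighbour. The naive peak counted for Nr1h3 (chr2:91183210-91183453) lay inside Madd and nearer to its end. The peak that Nr1h2 kept at day 15 (chr7:44548728-44549106) lay across the end of Pold1, a DNA polymerase gene, and outside Nr1h2. Without peaks of this kind 5, 4 and 1 of the 9 genes had a boundary peak. RefSeq start windows, from 250 bases before to 50 bases after a transcription start, gave a closer view for the 7 genes that have them. A peak overlapped such a window at 6, 4 and 1 of the 7 genes. By window this was 7, 4 and 1 of their 10, against 23.2%, 19.7% and 8.40% of all 32851 windows. Of all windows with a naive peak 78.5% had one at day 15, and of the 7 such windows of these genes 3 did, at Srebf1, Srebf2 and Npc2. The others, at Abca1, Nr1h2, Nr1h3 and another Srebf1 start, held naive peaks from the weaker 50% of that list by p-value. In that class 41.0% of all naive peaks were overlapped at day 15.

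For export, Abca1 encodes the transporter that loads cholesterol onto lipid-free apolipoprotein. It had 5 naive peaks, 4 at day 15 and 0 at day 30, all inside the gene or across its start. The naive peak at the start (chr4:53159782-53160240) had 16 tags and a fold of 5.74, at percentile 38.9 of its list, and neither tumour list had a peak there. The peak with its summit 1.11 kb downstream of the start in the naive list was in the day 15 list too, at 19 tags (fold 5.38) for day 15 against 16 tags (fold 5.67) for naive cells. Of the peaks further in, those at about 10.0 and 39.4 kb were in the naive and day 15 lists as well. The peak at 39.4 kb, the strongest naive peak of the gene, had 24 tags and a fold of 4.66 at day 15 and 28 tags and a fold of 6.87 in naive cells. A day 15 peak at 41.0 kb (16 tags) had no counterpart in the naive list, and a naive peak at 32.9 kb (12 tags) none at day 15. Of the 5 naive peaks 3 were overlapped at day 15, against 64.1% of all naive peaks. The start peak was the stronger of the other 2, but it belonged to the weaker 50% of the naive list. Of all naive peaks in that class 41.0% were overlapped at day 15, so absence of such a peak was common.

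The Abca1 start is shown because its sequence holds a known type of liver X receptor element. Such elements are 2 copies of a short repeat spaced by 4 bases. The letters GGTTA, then 5 open bases, then GGTCA, searched on both strands, occur in 16 of the 32851 RefSeq start windows (0.0487%), and 2 of the 10 windows of the 9 genes are among them: that of Abca1 and the most downstream of the 3 of Srebf1. These letters were written from known elements of LXR target genes, so the matches do not single out these genes independently. The sequences below are the 250 bases before each start on the strand of the gene (RefSeq, GRCm38.p6, the mm10 build), with the match in capitals.
Abca1, chr4:53159896-53160145, minus strand: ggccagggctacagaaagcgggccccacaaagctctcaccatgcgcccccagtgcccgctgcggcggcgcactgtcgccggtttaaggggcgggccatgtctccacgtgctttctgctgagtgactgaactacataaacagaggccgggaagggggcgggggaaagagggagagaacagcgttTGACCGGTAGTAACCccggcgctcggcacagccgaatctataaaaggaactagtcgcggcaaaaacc
Srebf1, chr11:60210472-60210721, minus strand: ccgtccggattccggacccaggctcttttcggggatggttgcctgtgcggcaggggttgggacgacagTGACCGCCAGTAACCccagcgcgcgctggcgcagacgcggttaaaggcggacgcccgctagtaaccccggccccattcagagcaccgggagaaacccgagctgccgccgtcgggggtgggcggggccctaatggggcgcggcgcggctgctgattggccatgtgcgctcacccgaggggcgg

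The matches are identical at 13 of 15 positions, but the letters searched fix all positions except the 5 open bases. They begin 67 bases before the Abca1 start and 182 before the Srebf1 start. Both lay inside a naive peak. At day 15 the Srebf1 match still lay inside a peak and the Abca1 match did not, and at day 30 neither did. Over all 16 windows with these letters, 4 had a naive peak, 2 a day 15 peak and 1 a day 30 peak. The window of Fasn, a fatty acid synthesis gene, was among those with a naive peak only. Within 1000 bp of a gene end, however, Fasn had a peak in both lists, with 15 tags at day 15 and 16 in the naive list. The other form searched, GGTCA on both sides of 5 open bases, occurs in 25 windows (0.0761%) and in none of the 10 of these genes.

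Abcg1 encodes the transporter that passes cholesterol to high-density lipoprotein. It had no peak inside the gene or within 1000 bp of it in any list, and no start window was used here. Its peaks, 2 at day 15 and 2 in the naive list, lay outside the gene about 17 and 19 kb from its nearer end. The farther one (chr17:31038425-31038854 in the naive list) had 24 tags and a fold of 5.10 at day 15 and 34 tags and a fold of 9.07 in naive cells. It stood at percentile 54.1 of the day 15 list and 89.1 of the naive list. The nearer one (chr17:31040569-31040769 in the naive list) had 21 tags and a fold of 4.64 at day 15 and 16 tags and a fold of 4.38 in naive cells. The order of the pair by strength was the same in both lists, with less between them at day 15.

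For the sterol receptors, a naive peak overlapped a start window of both liver X receptor genes. No such peak was in a tumour list. At Nr1h2 the naive peak was chr7:44553906-44554105, with its summit 15 bases before the start, 10 tags and a fold of 5.67. At Nr1h3 it was chr2:91194698-91195007, with its summit 183 bases past one of 2 close starts, 10 tags and a fold of 5.79. It lay just inside the transcript and did not reach either start. This Nr1h3 peak lies inside the gene, although the end of Acp2, at 7805 bases, is slightly nearer than the nearer end of Nr1h3, at 7822 bases. These were weak naive peaks, at percentiles 19.2 and 21.0. Of all naive peaks in the weaker 50%, 41.0% were overlapped at day 15 and 4.93% at day 30, so absence of such a peak was common. The Pold1 peak near Nr1h2 had 28 tags and a fold of 7.07 at day 15 and 17 tags and a fold of 8.33 in naive cells. Of the 4 peaks assigned to receptor genes in the naive list, it alone was overlapped at day 15.

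Srebf1 has 3 RefSeq starts. In the naive list the middle one (chr11:60220456-60220731, 12 tags) and the most downstream one (chr11:60210398-60210670, 10 tags) had a peak, and another peak of 8 tags had its summit 352 bases before the most upstream one. At day 15 the only peak was at the most downstream start, the one with the liver X receptor letters (chr11:60210405-60210681). It had 24 tags and a fold of 6.79 at day 15, against 10 tags and a fold of 5.50 in naive cells. By p-value it stood at percentile 73.6 of the day 15 list and 17.3 of the naive list. At day 30 the gene had none. Rai1 has the nearest gene end to this peak, at 11.2 kb, although the peak lies inside Srebf1.

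This pattern was uncommon among all shared peaks, taken without regard to their naive strength. Of 9476 overlapping pairs of day 15 and naive peaks, 11.3% had the higher fold at day 15, and the Srebf1 pair exceeded 98.3% of pairs in the log2 ratio of day 15 to naive fold (0.30, where the median was -0.40). Scaled to the naive depth its day 15 pileup was 10.1 tags (95% Poisson interval 6.45 to 15.0) and the naive pileup 10 (4.80 to 18.4). These intervals overlap, so the pileups do not separate. Only 0.433% of pairs had the higher scaled pileup at day 15. Of the 12 pairs assigned to the 9 genes, 2 had the higher fold at day 15, the other being the nearer Abcg1 peak, and the median log2 ratio was -0.44. The Srebf1 pair was singled out after its values were seen. Its naive peak was weak, at percentile 17.3, and the pair was not ranked among pairs of like naive strength.

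**Figure D2:**
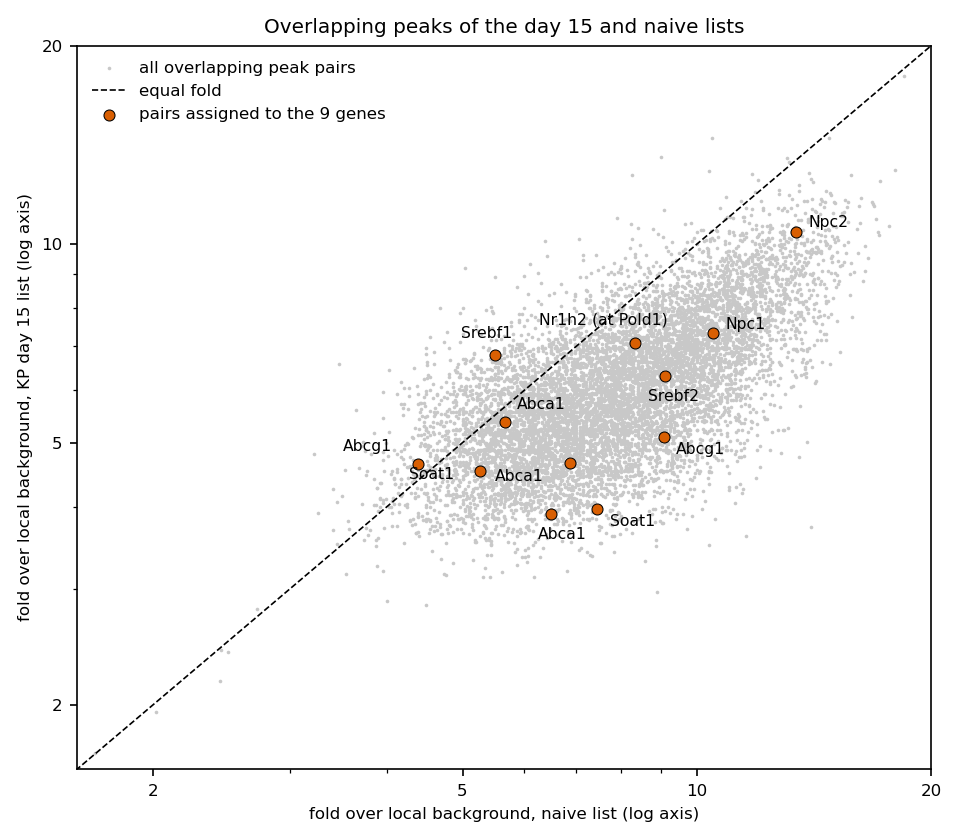
Fold over local background of each overlapping peak pair, at day 15 (vertical) and in the naive list (horizontal), both on log axes, with the 12 pairs assigned to the 9 genes in orange over all 9476 pairs in grey. The Srebf1 point lies farthest above the dashed line of equal fold among the orange points, at 6.79 against 5.50, and 10 of the 12 lie below the line.

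Srebf2 had 1 peak, across its start, in the day 15 and naive lists and none at day 30. It lay at chr15:82146938-82147326 at day 15, with 26 tags and a fold of 6.31, and at chr15:82146826-82147283 in the naive list, with 19 tags and a fold of 9.09. It stood at percentile 73.1 of the day 15 list and 73.3 of the naive list, a change of -0.19 points where the median over all 9476 pairs was -5.87. Its start window holds 5 GC boxes, the letters GGGCGG on either strand, which occur in 35.7% of all windows. The sterol element letters TCACNCCAC, present in 1.24% of windows, were not found in the start windows of these genes, nor were PU.1 (GAGGAAGT, 3.20%) or AP-1 (TGANTCA, 7.81%) letters.

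For storage, Soat1 was the one gene with more peaks at day 15 than in the naive list, 4 against 2. The added peaks lay at the start (chr1:156474109-156474385, 18 tags, fold 5.00) and 36.8 kb downstream of it (chr1:156437326-156437673, 14 tags, fold 5.21). Both shared peaks had fewer tags per depth and a lower fold at day 15, as most shared peaks did. Over all pairs, 11.3% had the higher fold at day 15 and 0.433% the higher scaled pileup. The one 2.6 kb past the start had 15 tags and a fold of 3.96 at day 15 and 20 tags and a fold of 7.45 in naive cells. The other, about 14.5 kb past the start, had 12 tags and a fold of 4.53 at day 15 and 9 tags and a fold of 5.26 in naive cells. Scaled to the naive depth the start peak had 7.55 tags (4.48 to 11.9) and no naive peak had fewer than 6 tags. At this depth its absence from the naive list cannot be read as a difference in accessibility. Of the 16 day 15 peaks of the 9 genes, 4 had no naive counterpart, against 12.8% of all day 15 peaks.

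The 250 bases before the Soat1 start, the start with a peak at day 15 only, hold 1 inverted CCAAT box (ATTGG on either strand, found in 37.4% of all windows), in capitals.
Soat1, chr1:156474329-156474578, minus strand: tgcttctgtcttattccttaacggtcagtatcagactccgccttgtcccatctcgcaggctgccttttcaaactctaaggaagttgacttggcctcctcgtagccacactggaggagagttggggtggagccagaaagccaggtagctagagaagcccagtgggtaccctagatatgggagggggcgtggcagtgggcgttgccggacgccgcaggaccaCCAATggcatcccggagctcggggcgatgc

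For lysosomal egress, Npc1, the membrane transporter that receives cholesterol from NPC2, had 4 naive peaks, 1 at day 15 and none at day 30. The shared one lay across the upper end of the gene, at chr18:12236234-12236584 for day 15 (27 tags, fold 7.33) and at chr18:12236259-12236629 for naive cells (25 tags, fold 10.5). The other 3 naive peaks lay inside the gene, between 6 and 13 kb from that end, with 17, 11 and 9 tags. The strongest of them (chr18:12223919-12224288), at percentile 71.8, was the one naive peak of these genes in the stronger 50% of the list that no day 15 peak overlapped.

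Npc2 had the strongest peak of the 9 genes in the naive and day 15 lists and the only boundary peak at day 30. It lay across the start at chr12:84772778-84773321 in the naive list at 43 tags (fold 13.4). At day 15 it spanned chr12:84772784-84773388 at 41 tags (fold 10.4), and at day 30 chr12:84772925-84773222 at 16 tags (fold 6.12). It stood at percentile 97.8, 98.2 and 59.0 of these lists, with its summit 8, 5 and 83 bases past the Npc2 start. In the naive and day 15 lists the peak also reached into Isca2, an iron-sulfur cluster assembly gene on the other strand, whereas the day 30 peak ended before it. The remaining Npc2 peaks were each in 1 list: 10 tags 6.07 kb outside the gene in the naive list, 13 tags inside it at day 15 and 14 tags inside it at day 30 (chr12:84761382-84761583, fold 5.36). The last had no naive counterpart, as did 3.49% of all day 30 peaks.

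The stretch between Npc2 and Isca2 is shown as the one boundary of these genes in all 3 lists. Its GC boxes and CCAAT boxes, in capitals, are 2 of each, and neither liver X receptor form is present.
Npc2, chr12:84773113-84773229, minus strand: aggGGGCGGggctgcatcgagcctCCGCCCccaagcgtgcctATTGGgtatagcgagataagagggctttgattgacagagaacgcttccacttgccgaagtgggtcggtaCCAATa

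Over all assigned peaks, 12 of the 23 naive peaks (52.2%, 95% interval 33.0 to 70.8) were overlapped at day 15, against 64.1% of all naive peaks. By strength, this was 7 of 8 in the stronger 50% of the naive list, against 87.2% of all such peaks, and 5 of 15 in the weaker 50%, against 41.0%. At day 30, 1 of 23 was overlapped (4.35%, 0.772 to 21.0), against 21.7%. This was 1 of 8 among the stronger peaks, against 38.4%, and 0 of 15 among the weaker, against 4.93%. Between the tumour lists, 1 of the 16 day 15 peaks was overlapped at day 30 (6.25%, 1.11 to 28.3), against 28.7%. The day 15 interval includes the share of all peaks, and both day 30 intervals end slightly below theirs. The shares of all peaks are not matched for strength, and 15 of the 23 naive peaks were in the weaker 50%. Both day 30 counts rest on the same Npc2 start peak. The intervals therefore do not decide whether these genes differ from all peaks. The 23 peaks come from 9 genes and are not independent.

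Other genes of the pathway were counted from 4 lists. Cholesterol synthesis genes had a boundary peak at 16 of 19 in naive macrophages, 15 at day 15 and 11 at day 30. Thus 15 of 16 were kept at day 15 and 11 of 16 at day 30, where 79.6% and 36.5% of all naive boundary genes were. Their highest boundary peaks were strong in the naive list, with a median of 31 tags. The median over all genes with a boundary peak was 19, and that of the 6 naive genes above was 18. For Nr1h2 and Nr1h3 the peaks behind this last value lay at a neighbouring gene. Hmgcs1, an early enzyme of the pathway, had 59 tags in naive macrophages, 60 at day 15 and 25 at day 30. Fdps, Nsdhl and Ebp had no boundary peak at day 30, and Sc5d, with 15 tags, had one in the naive list only.

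Of 14 sterol sensing and uptake genes, 10 had a boundary peak in naive macrophages, 9 at day 15 and 4 at day 30, where the shares of all genes were 34.7%, 29.6% and 12.8%. Insig1, which holds SREBP in the endoplasmic reticulum, had 36, 40 and 28 tags, and Mbtps1, a protease that cuts SREBP, had 17, 19 and 18. Scap, the SREBP escort, had one at day 15 only (20 tags), Mbtps2 in the naive list only (10 tags) and Scarb1 at day 30 only (11 tags). Each of these last 3 rests on a single peak, where the median pileup was 19 tags in the day 15 list, 16 in the naive list and 17 in the day 30 list. Of the 10 naive boundary genes 8 were kept at day 15 and 3 at day 30, beside 79.6% and 36.5% of all naive boundary genes.

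Of 14 sterol transport and ester hydrolysis genes, 8, 8 and 4 had a boundary peak, and of 10 further liver X receptor target genes, 7, 6 and 1, beside the same shares of 34.7%, 29.6% and 12.8% of all genes. Stard4, which moves sterol between membranes, had 66 tags in naive macrophages, 45 at day 15 and 28 at day 30, and Nceh1, which releases cholesterol from its esters, had 25, 33 and 17. Lipa, the lysosomal ester hydrolase, Osbpl1a, Abca7 and Soat2 had theirs in the naive and day 15 lists only. The one liver X receptor target gene in all lists was Lpcat3, which remodels phospholipids, with 28, 21 and 15 tags. Mylip, a ubiquitin ligase gene, Fasn and Lpl had one in the naive and day 15 lists, and Arl4c in the naive list only (11 tags). Counting each of the 56 related genes once, 36 of 40 naive boundary genes were kept at day 15 and 19 of 40 at day 30, beside 4 and 1 of 6 among the 9 genes and 79.6% and 36.5% of all naive boundary genes.

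**Figure D3:**
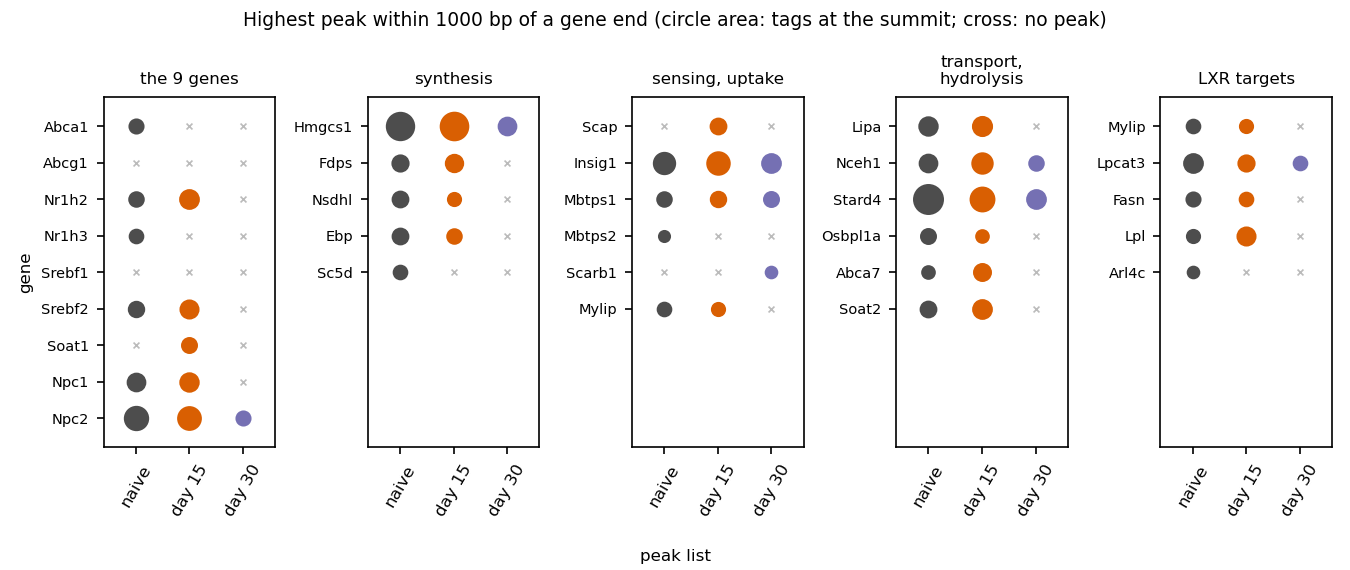
Each row is one of the 9 genes or a related gene named above, and each column of marks a list (naive, day 15, day 30), with circle area giving the tags at the summit of the highest peak within 1000 bp of a gene end and a cross where there was none. The circles of Nr1h2 and Nr1h3 are peaks at a neighbouring gene, and Mylip stands in both lists that hold it. At day 30, 1 of the 9 genes has a circle, Npc2.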

How the data were processed

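ATAC-seq of sorted alveolar macrophages was deposited as 1 peak list for each of 3 groups, and the labels of all 11 samples point to these lists. The submitters' processing notes name the aligner Bowtie2 (2.3.4.1), the peak caller MACS2 (2.1.1) and the build mm10. Read filtering, transposase shift and pooling are not stated there. The columns have no headers: the deposited score, the fold over local background (a ratio), the −log10 p-value, the −log10 q-value and the summit offset were read from the narrowPeak layout and the values.

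Summit pileups were solved from the deposited fold, (pileup + 1)/(background + 1), and p-value, an upper Poisson tail. This returned a whole-number summit pileup within 0.001 on the −log10 scale for every peak. On simulated peaks 99.9% or more of pileups in each list came back exactly. The lowest common background was 0.785, 1.87 and 1.65 tags per position for naive, day 15 and day 30 peaks and served as depth. Genes came from RefSeq GRCm38.p6 (mm10). Start windows and sequences came from its promoter table (10 windows for 7 of the 9 genes). An overlap was 1 bp or more. Intervals are 95% Wilson for shares and exact Poisson for tags. They cover counting error only, as tags are not known to be independent molecules.

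The named genes are the 9 genes and, from each of 4 related lists, in list order, up to 4 whose boundary status differed between lists and up to 2 with a boundary peak in all lists. Some genes this rule picks are counted in the lists but not reported here by name. The genes, lists and motif letters were chosen with earlier results of these data known. Alternative windows, thresholds, distances and overlaps are given in the closing section. Python 3.11.15, pandas 2.3.3, numpy 2.4.6 and scipy 1.17.1 were used.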

Additional observations from a re-analysis of the deposited data

How the results depend on the processing

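No paired analysis was possible because each group has 1 peak list, which carries no replicate number, and no replicate could be left out for the same reason. The counts of genes with a boundary peak, of assigned peaks and of overlapped peaks were recomputed under 11 alternative settings, which gave 54 values, and 49 of these stayed within 1.5 times the reported count. The other 5 came from taking the 3352 strongest peaks of each list, an alternative that by its construction removes most naive and day 15 peaks. It left 5 assigned peaks at day 15 and 3 in the naive list, and boundary peaks at 2 of the 9 genes in the naive list. Of the related genes it left 21 with a day 15 and 19 with a naive boundary peak. Under this setting Abca1 and Nr1h3 had no naive boundary peak to lose, and Soat1 had none at day 15. The named losses and the gain therefore did not hold there. Nr1h2, by the peak at Pold1, and Srebf2 then had a boundary peak at day 15 only. With a 500 bp window the peaks at Madd and Pold1 no longer counted for Nr1h3 and, at day 15, for Nr1h2. With a 2000 bp window Abca1 had a boundary peak at day 15 and Srebf1 had one in the naive list, with none at day 15. Start windows, peaks without those at another gene, and the strength classes were added after seeing the data. The lower depth estimated for the naive list limits any reading of peaks found in a tumour list only.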
